A study of Mus musculus with 6 samples.

Results

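The tumour necrosis factor (TNF) superfamily was examined in activated CD4 T cells that lack the transcription factor Foxo1. Members were the genes of the deposited normalized matrix whose symbol starts with Tnfrsf or Tnfsf, names one of the TNF receptor-associated factors Traf1 to Traf7, or is Cd27, Cd70, Cd40, Cd40lg, Fas, Fasl, Tnf, Lta, Ltb, Ltbr, Tnfaip3 or Tradd. This rule took 40 of the 13564 genes of the matrix: 13 ligands, 18 receptors and 9 genes that transmit or limit the signal inside the cell. A further 12 gene names of the family stood in the count files but not in the matrix, and 11 of these were under 10 counts in every library. The ligands of the family are mostly membrane proteins that act on a receptor of the same or a neighbouring cell. The receptors have no enzyme activity of their own. Some recruit TRAF adaptors, through which NF-κB and the survival of an activated T cell are promoted, and others carry a death domain, through which caspases can be started. In CD4 T cells, several receptors appear only after the antigen receptor has been engaged and act as costimulators, and several ligands are the means by which the T cell instructs B cells, dendritic cells and stromal cells.

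Naive CD4 T cells (CD4N, CD44 low and Foxp3-negative) were sorted from lymph nodes of Foxo1TKO mice (n = 3 libraries) and Foxo1Ctrl mice (n = 3 libraries) and kept for 4 days in culture under stimulation by an anti-CD3 antibody at 0.1 µg/ml. Both genotypes carry Foxo1 fl/fl alleles and are C57BL/6 mice with a Foxp3-GFP reporter. Foxo1TKO mice also carry CD4cre, so that the gene is deleted during thymic development in all T cells that pass through CD4 expression, whereas Foxo1Ctrl mice have no Cre. Every culture also received 250000 splenocytes of CD3εKO mice as antigen presenting cells, a population free of host T cells. The labels give 50000 T cells per culture and the methods give more, the donors were young adult mice, and neither source says whether T cells were separated from splenocytes before RNA extraction. Nor do the labels say that the libraries of a genotype came from separate mice, so p-values measure the spread between these libraries.

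Library totals ran from 14783890 to 19675447 expected counts, and 13691 genes had at least 10 counts in at least 3 libraries and were tested. Foxo1 itself, the deleted gene, was at 81.5 ± 34.0 normalized counts in Foxo1TKO and 1789 ± 415 in Foxo1Ctrl (mean ± SD, n = 3 per genotype). The summed level of 10 T cell markers was 7880 to 8550 TPM (a level scaled by transcript length and by library) in Foxo1TKO libraries and 9560 to 10000 in Foxo1Ctrl libraries. Of these 10, 1 was called lower and 0 higher. B cell markers summed to 8.46 to 11 and 25.1 to 33.1 TPM, with Pax5, Ebf1, Cd22, Blk and Cr2 under 1 TPM in every library. Macrophage and monocyte markers summed to 4.69 to 6.03 and 2.63 to 4.29 TPM, and 0 of the 2 tested were called. Cd68 made up most of these sums, at 4.17 to 4.92 TPM in Foxo1TKO and 2.37 to 2.94 TPM in Foxo1Ctrl. The other markers of that list were each under 1 TPM in every library. Of 7 dendritic cell markers, Itgax was at 6.59 to 7.68 TPM in Foxo1TKO and 0 to 0.43 TPM in Foxo1Ctrl and was the 1 called higher of the 3 tested. The other 6 summed to 3.36 to 3.84 TPM in Foxo1TKO and 2.11 to 4.41 TPM in Foxo1Ctrl, with Flt3, Clec9a, Siglech and Batf3 under 1 TPM in every library. Neutrophil markers summed to 0 to 7.32 TPM in Foxo1TKO and 0 to 0.35 TPM in Foxo1Ctrl, and 0 of the 6 had enough counts to be tested. Of these, S100a8, S100a9 and Ngp were found in Foxo1TKO replicates 1 and 2 only. Plasma cell markers summed to 110 to 159 and 178 to 239 TPM, with Sdc1 under 1 TPM in every library. Of the 3 plasma cell markers tested, 2, Jchain and Mzb1, were called lower. Regulatory T cell markers summed to 29.1 to 46.5 and 33.0 to 43.8 TPM, with Foxp3 under 1 TPM in every library. Of the 3 tested, Lrrc32 alone was called higher (3.09 to 4.22 against 1.61 to 2.02 TPM). NK cell markers summed to 2.93 to 3.8 and 2.96 to 4.36 TPM, with 0 called. CD8 T cell markers summed to 4.27 to 6.48 and 6.87 to 8.29 TPM, with 0 called. Foxo1TKO replicate 1 and Foxo1Ctrl replicate 2 stood apart from the other libraries of their genotype. In bulk RNA, fewer cells that express a gene and less RNA per cell cannot be told apart.

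Values below are counts normalized by the TMM method, given in the order of replicates 1, 2 and 3, and log2 fold changes are Foxo1TKO against Foxo1Ctrl with their standard error. A gene was called when edgeR's quasi-likelihood test gave an adjusted p under 0.05 over all genes tested and the fold change was over 1.5. Of the 40 members, 11 were called higher in Foxo1TKO (27.5%) and 4 were called lower (10%). Over all genes tested, 11.1% were called higher and 11.8% lower. The median log2 fold change was 0.21 over the members and 0.01 over all genes. The member median was -0.036 without Foxo1TKO replicate 1 and 0.034 without Foxo1Ctrl replicate 2. The filter was applied anew in these fits, so their medians cover fewer members. Cd70 and Tnfrsf21 dropped out without Foxo1TKO replicate 1, and Tnfrsf21 and Tnfrsf23 without Foxo1Ctrl replicate 2. All 3 Foxo1TKO libraries lay above all 3 Foxo1Ctrl libraries for 14 members and below them for 9, and the genotypes overlapped for 17. The background for such separation was 21.5% of all genes tested above and 21.2% below. By role, 10 of 13 ligands were called (7 higher, 3 lower), 5 of 18 receptors (4 higher, 1 lower) and 0 of 9 transducers. Medians of the log2 fold change were 1.07, 0.13 and 0.11, respectively. Of the 9 transducers, edgeR called 0, limma-voom 0 and DESeq2 2 (Traf2 and Traf3, higher), and 3 had an unadjusted edgeR p under 0.05.

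**Figure D1:**
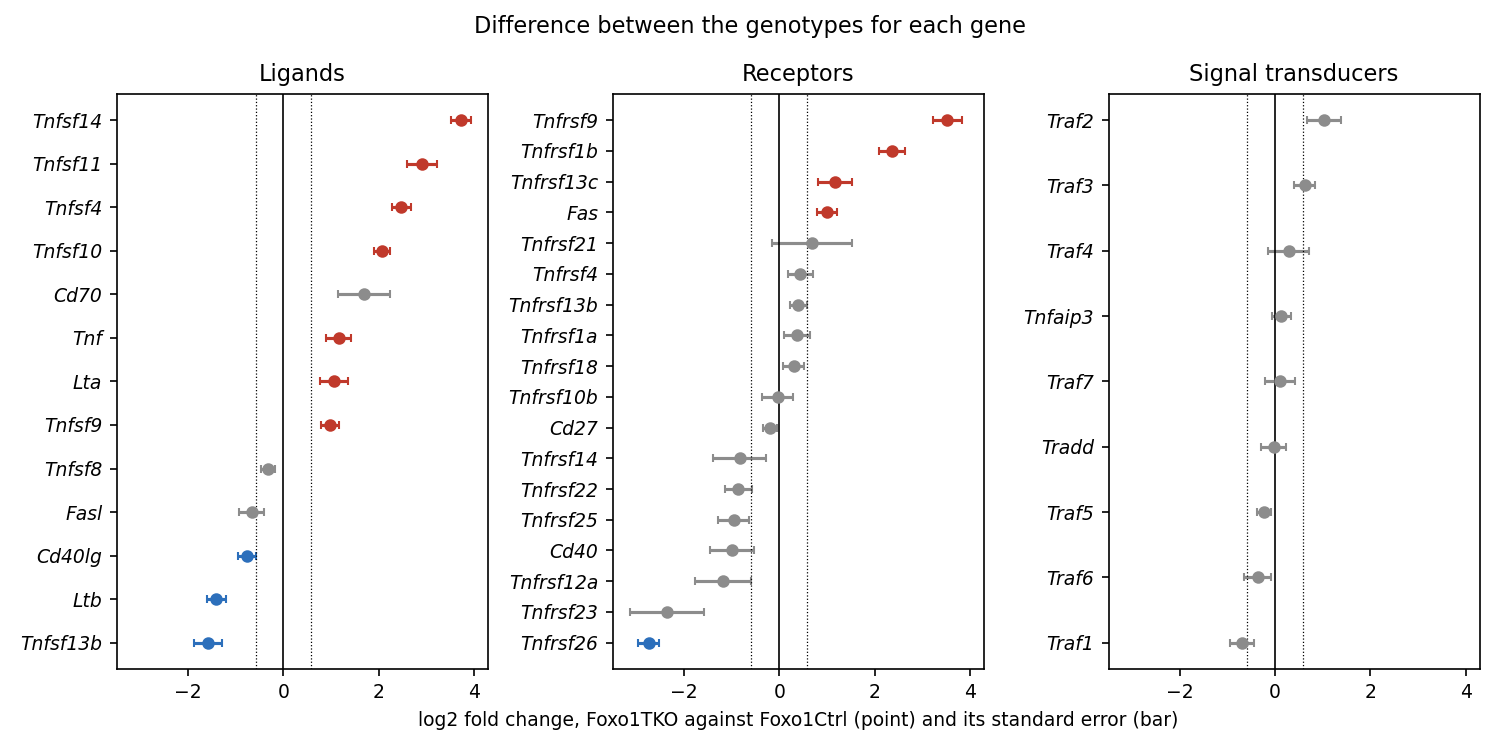
Log2 fold change of each of the 40 members (horizontal axis, Foxo1TKO against Foxo1Ctrl) with its standard error as a bar, for ligands, receptors and signal transducers. Red points were called higher and blue points lower, grey points were not called, and dotted lines mark a fold change of 1.5; called genes fill most of the ligand panel and are missing from the transducer panel.

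Lymphotoxin beta (Ltb), Tnf and lymphotoxin alpha (Lta) form one cluster within the major histocompatibility complex, and their promoters are shown because these adjacent genes moved in opposite directions. The sequences are those of RefSeq (GRCm38.p6), 5′ to 3′ on the strand of the gene, cut where the GENCODE gene begins. Capitals mark exact matches, on either strand, to the Foxo motif GTAAACA, the NF-κB motif GGGNNTTTCC or the NFAT motif GGAAAA.
Ltb: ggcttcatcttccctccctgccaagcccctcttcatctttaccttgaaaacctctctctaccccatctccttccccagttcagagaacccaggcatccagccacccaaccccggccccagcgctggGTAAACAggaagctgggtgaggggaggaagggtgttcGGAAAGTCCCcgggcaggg
Tnf: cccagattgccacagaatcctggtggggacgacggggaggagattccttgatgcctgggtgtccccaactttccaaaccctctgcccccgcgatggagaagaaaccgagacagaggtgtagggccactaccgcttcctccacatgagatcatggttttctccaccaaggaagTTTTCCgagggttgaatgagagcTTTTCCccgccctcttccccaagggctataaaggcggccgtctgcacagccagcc
Lta: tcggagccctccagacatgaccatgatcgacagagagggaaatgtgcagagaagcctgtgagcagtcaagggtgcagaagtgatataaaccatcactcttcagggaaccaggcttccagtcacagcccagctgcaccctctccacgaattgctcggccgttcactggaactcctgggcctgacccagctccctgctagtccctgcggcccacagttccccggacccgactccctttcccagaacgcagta
The windows are chr17:35194257-35194438 on the plus strand for Ltb, and chr17:35202008-35202257 and chr17:35205352-35205601 on the minus strand for Tnf and Lta. Ltb held a Foxo match 124 bases before its RefSeq start and an NF-κB match 87 bases before it, whereas Tnf held 2 NFAT matches and Lta held none. RefSeq promoter windows of 300 bases (250 before and 50 after the start) were found for 31 of the 40 members. No window was found for Cd40, Cd40lg, Cd70, Tnfrsf10b, Tnfrsf22, Tnfrsf26, Tnfsf4, Tnfsf9 and Tradd. Thus 2 of the 4 members called lower (Ltb and Tnfsf13b) and 9 of the 11 called higher were searched. Of the 31 searched, Ltb alone held a Foxo match, which 3.65% of all 32851 promoters of the table hold. An NF-κB match stood in 6 of the 31 (Ltb, Tnfaip3, Tnfrsf25, Tnfrsf9, Traf2 and Traf3), and an NFAT match in 11 of the 31. Of all promoters of the table, 1.63% held an NF-κB match and 23.4% an NFAT match. Those shares are per promoter, whereas a member was counted if any of its promoters matched, and some members have more than 1. Of the 6 members with an NF-κB match, 4 were not called, and the Traf2 match lies after the start. The Tnfrsf25 NF-κB and NFAT matches overlap each other. A match describes the letters of the window, and its absence says nothing of the factor.

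Ltb, whose product anchors lymphotoxin alpha at the cell surface for signalling to stromal and dendritic cells, had the highest level per length of all ligands and fell in Foxo1TKO cells. Ltb (ENSMUSG00000024399, chr17:35194439-35196320) was at 11800.0, 17210.0 and 17870.0 normalized counts in Foxo1TKO and 38380.0, 38630.0 and 47520.0 in Foxo1Ctrl. The genotypes did not overlap, and the level was 2.66-fold lower in Foxo1TKO (log2 -1.41 ± 0.20, edgeR adjusted p = 0.00242). In TPM, the level was 1046 ± 153 in Foxo1TKO and 2717 ± 534 in Foxo1Ctrl (mean ± SD, n = 3). Ltbr, the receptor of the lymphotoxin heterotrimer on stromal and myeloid cells, had 0 counts in every library, which allows up to 3 counts per library.

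Tnf and Lta, cytokines that bind the TNF receptors, rose from low levels. Tnf (ENSMUSG00000024401, chr17:35199381-35202007) was at 146, 118 and 108 normalized counts in Foxo1TKO and 62.7, 44.2 and 57.6 in Foxo1Ctrl (log2 1.16 ± 0.27, adjusted p = 0.017). Lta (ENSMUSG00000024402, chr17:35203165-35205351) was at 248, 197 and 124 and 91, 83.9 and 95.1 (log2 1.07 ± 0.29, adjusted p = 0.032). Both were higher in every Foxo1TKO library than in any Foxo1Ctrl library, by 2.23-fold and 2.1-fold, with Lta widely spread among the Foxo1TKO libraries. Tnf lies 3.06 kb from Ltb and Lta lies 1.16 kb from Tnf, so the fall of Ltb and the rise of Tnf and Lta were measured within one stretch of chromosome 17. Ltb stayed at 1046 TPM in Foxo1TKO against 5.71 TPM for Tnf and 10.7 TPM for Lta. The Ltb call stood without any single library. The Tnf call was lost without Foxo1TKO replicate 1 or 2 or Foxo1Ctrl replicate 1 or 3 (adjusted p from 0.0501 to 0.0596). The Lta call was lost without any library but Foxo1TKO replicate 3 (adjusted p from 0.0678 to 0.105).

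The largest changes among the ligands were rises. Tnfsf14 (LIGHT, a ligand of Tnfrsf14 and of Ltbr; ENSMUSG00000005824, chr17:57189492-57194177) was at 885, 780.5 and 709 normalized counts in Foxo1TKO and 54.4, 52.2 and 69.2 in Foxo1Ctrl. All Foxo1TKO libraries were far above all Foxo1Ctrl libraries, 13.3-fold on average (log2 3.73 ± 0.21, adjusted p = 5.09e-05). Tnfsf11 (RANKL, which acts on osteoclast precursors and dendritic cells; ENSMUSG00000022015, chr14:78277445-78308043) was at 403, 640.4 and 531 in Foxo1TKO and 44.9, 68 and 92.2 in Foxo1Ctrl. It was 7.55-fold higher (log2 2.92 ± 0.32, adjusted p = 0.000687). Its signalling receptor Tnfrsf11a had at most 4 counts in a library and its soluble decoy Tnfrsf11b had 0.

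Tnfsf4 (OX40 ligand; ENSMUSG00000026700, chr1:161395409-161418410), which antigen presenting cells and some activated T cells carry, was at 436, 592 and 513 normalized counts in Foxo1TKO and 88.7, 91.9 and 95.1 in Foxo1Ctrl. The Foxo1Ctrl libraries differed little among themselves, and the Foxo1TKO libraries were 5.54-fold higher (log2 2.47 ± 0.20, adjusted p = 0.000208). Tnfsf10 (TRAIL, a death ligand; ENSMUSG00000039304, chr3:27317028-27342427) was at 948, 913 and 895 in Foxo1TKO and 190.4, 249.5 and 215 in Foxo1Ctrl. This was a 4.19-fold difference (log2 2.07 ± 0.17, adjusted p = 0.000235). Tnfsf9 (4-1BB ligand; ENSMUSG00000035678, chr17:57105325-57107757) was at 471, 565 and 588 in Foxo1TKO and 247, 318 and 255 in Foxo1Ctrl, and its groups were separate by a smaller margin (log2 0.98 ± 0.19, adjusted p = 0.00836). An exon of Tnfsf9 overlaps the antisense gene Gm11110, so without the strand of the counting its reads cannot be told from those of that gene. Cd70, the ligand of Cd27, was sparse, at 21.8, 16.5 and 20.2 in Foxo1TKO and 7.09, 1.13 and 7.69 in Foxo1Ctrl. The Cd70 values were separate, yet edgeR did not call it (log2 1.69 ± 0.54, adjusted p = 0.0569). Cd70 entered the test only through Foxo1TKO, with 19 to 26 raw counts there and 1 to 8 in Foxo1Ctrl. Its separation and its sign were therefore largely set by the filter on counts. Tnfsf4, Tnfsf9 and Cd70 are also ligands of antigen presenting cells, whose marker levels are given above and whose part in these differences was not tested. Tnfsf9, Cd70 and Tnfsf14 lie next to each other on chromosome 17, with gaps of 38.2 kb and 39.7 kb. Of these, Tnfsf9 and Tnfsf14 were called higher.

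Beside Ltb, 2 ligands fell. Tnfsf13b (BAFF, the survival factor of B cells; ENSMUSG00000031497, chr8:10006467-10039072) was at 52, 54.8 and 56.4 normalized counts in Foxo1TKO and 129, 231 and 134 in Foxo1Ctrl. The Foxo1TKO libraries were nearly alike and lay below all Foxo1Ctrl libraries (log2 -1.58 ± 0.30, adjusted p = 0.00763). Cd40lg (CD40 ligand, the signal of helper T cells to B cells; ENSMUSG00000031132, chrX:57212143-57224042) was at 518, 556 and 435 in Foxo1TKO and 992, 869 and 704 in Foxo1Ctrl. Its groups were separate but closer (log2 -0.76 ± 0.19, adjusted p = 0.0231). The Cd40lg call was lost without any one Foxo1TKO library or without Foxo1Ctrl replicate 1 (adjusted p from 0.0507 to 0.0872).

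The remaining ligands were not called. Fasl, the death ligand that acts on Fas, was at 1675, 2018 and 1627 normalized counts in Foxo1TKO and 1919, 3965 and 2546 in Foxo1Ctrl. Foxo1Ctrl replicate 1 lay within the Foxo1TKO range, and without it Fasl was called lower (log2 -0.66 ± 0.26 and adjusted p = 0.106 with all libraries, -0.91 and 0.0461 without it). Tnfsf8 (CD30 ligand) was at 1362, 1389 and 1509 in Foxo1TKO and 1957, 1656 and 1730.0 in Foxo1Ctrl. The groups were separate by a narrow margin (log2 -0.33 ± 0.14, adjusted p = 0.135). Its receptor Tnfrsf8 reached at most 11 counts. Tnfsf12, Tnfsf13, Tnfsf15 and Tnfsf18 had at most 4, 2, 5 and 0 counts in a library.

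**Figure D2:**
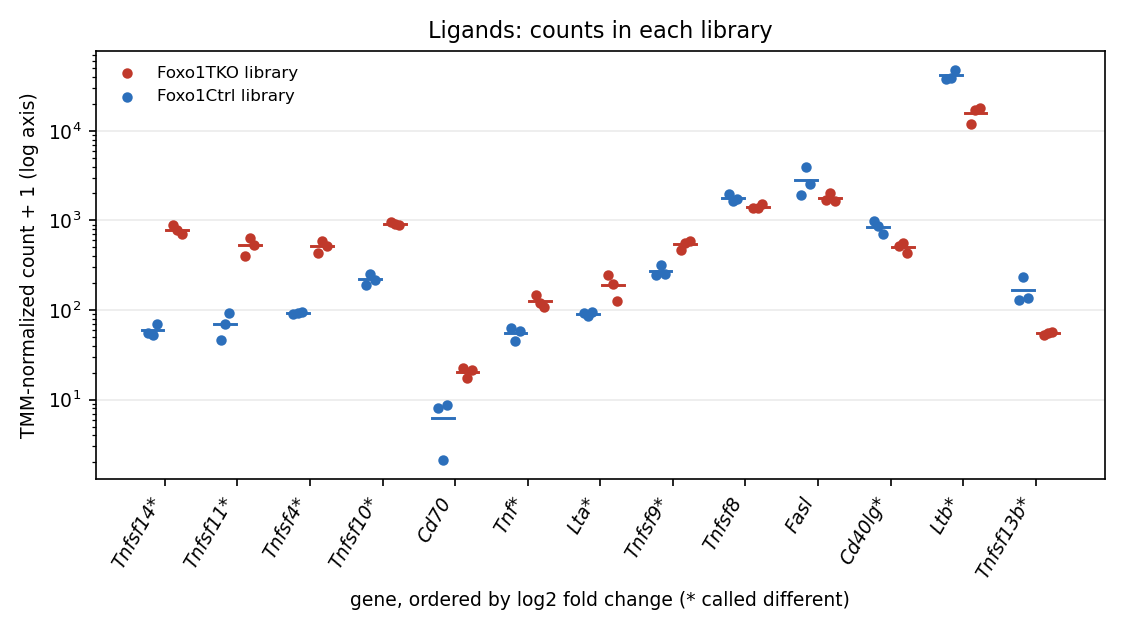
Normalized count of each ligand in each library (vertical log axis, count + 1), with Foxo1TKO libraries in red, Foxo1Ctrl libraries in blue and a line at each group mean; genes are ordered by log2 fold change and an asterisk marks a called gene. Tnfsf14 goes from between 52.2 and 69.2 counts in Foxo1Ctrl to between 709 and 885 in Foxo1TKO, and Ltb is the most counted ligand in every library.

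The largest rise among the receptors was that of Tnfrsf9 (4-1BB or CD137), a costimulatory receptor that T cells gain on activation. Tnfrsf9 (ENSMUSG00000028965, chr4:150914562-150946102) was at 19290.0, 17090.0 and 15230.0 normalized counts in Foxo1TKO and 1270.0, 1030.0 and 2164 in Foxo1Ctrl. The lowest Foxo1TKO library was far above the highest Foxo1Ctrl library, and the level was 11.5-fold higher (log2 3.53 ± 0.30, adjusted p = 0.000237). In TPM it was 658 ± 142 in Foxo1TKO and 56.7 ± 26.8 in Foxo1Ctrl. Tnfrsf1b (TNF receptor 2), which carries no death domain and acts as a costimulator in T cells, was at 1045, 679 and 822 normalized counts in Foxo1TKO and 163, 117 and 210.4 in Foxo1Ctrl (ENSMUSG00000028599, chr4:145213463-145246870). It was 5.16-fold higher with no overlap (log2 2.37 ± 0.27, adjusted p = 0.000954). These 2 were the called genes of the 7 costimulatory receptors tested, whose median log2 fold change was 0.30. That is 28.6% higher and 0% lower, against 11.1% and 11.8% of all genes tested.

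The other 5 costimulatory receptors did not pass the test, among them the abundant Tnfrsf4, Tnfrsf18 and Cd27. Tnfrsf4 (OX40) was at 6823, 11140.0 and 10490.0 normalized counts in Foxo1TKO and 5050.0, 8955 and 6915 in Foxo1Ctrl (log2 0.44 ± 0.26, adjusted p = 0.264). Tnfrsf18 (GITR), its neighbour on chromosome 4 at 9.55 kb, was at 12470.0, 18420.0 and 18480.0 in Foxo1TKO and 11270.0, 16660.0 and 12070.0 in Foxo1Ctrl (log2 0.30 ± 0.22, adjusted p = 0.368). Cd27, a receptor that naive T cells already carry, was at 12000.0, 13960.0 and 14600.0 in Foxo1TKO and 15850.0, 16020.0 and 14370.0 in Foxo1Ctrl (log2 -0.19 ± 0.14, adjusted p = 0.394). The genotypes overlapped for all 3. Tnfrsf18 overlaps exons of the antisense gene Gm16008, and its level, where given, may hold reads of that gene. Tnfrsf25 (death receptor 3) was at a mean of 409 in Foxo1TKO and 793 in Foxo1Ctrl (log2 -0.95 ± 0.33, adjusted p = 0.0694). Foxo1Ctrl replicate 2 was within the Foxo1TKO range for this gene, and without it Tnfrsf25 was called lower (log2 -1.25, adjusted p = 0.00412). Tnfrsf14 (HVEM), the receptor of Tnfsf14, was sparse, at 13.4, 15.7 and 4.26 in Foxo1TKO and 33.1, 11.3 and 18.3 in Foxo1Ctrl (log2 -0.83 ± 0.56, adjusted p = 0.33).

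Ranked by level per length, Ltb (2717 ± 534 TPM), Cd27 (866 ± 74), Tnfrsf18 (855 ± 89) and Tnfrsf4 (547 ± 104) led in Foxo1Ctrl cells (mean ± SD, n = 3). Cd27 and Tnfrsf18 lay within the SD of each other, whereas Ltb stood above them and Tnfrsf4 below. In Foxo1TKO cells the order was Tnfrsf18 (1098 ± 158), Ltb (1046 ± 153), Cd27 (794 ± 29.4), Tnfrsf4 (771 ± 141) and Tnfrsf9 (658 ± 142). There Tnfrsf18 and Ltb lay within the SD of each other, as did Cd27 and Tnfrsf4, and Tnfrsf4 and Tnfrsf9. Tnfrsf9 thus had a level per length near that of Tnfrsf4 in Foxo1TKO, whereas in Foxo1Ctrl its 56.7 TPM was below the 547 TPM of Tnfrsf4.

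**Figure D3:**
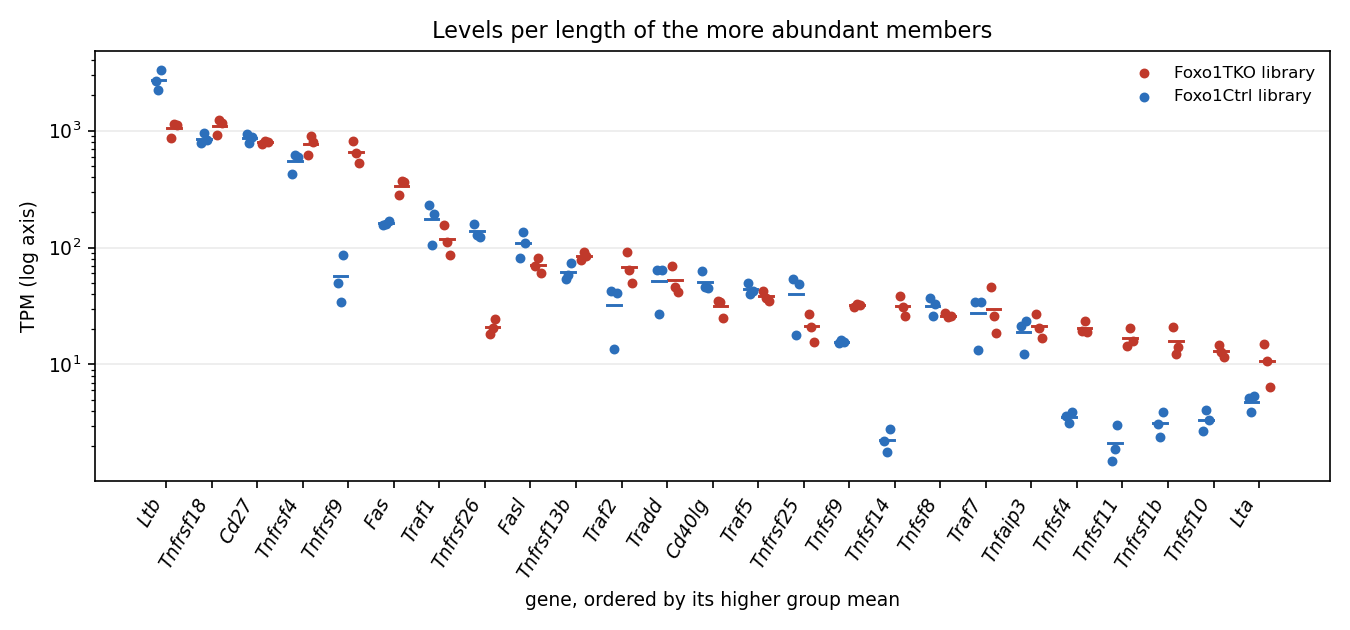
Level per length (TPM, vertical log axis) in each library of the 25 members with a mean of at least 10 TPM in a genotype, with Foxo1TKO in red, Foxo1Ctrl in blue and lines at the group means. Ltb, Tnfrsf18, Cd27 and Tnfrsf4 lead, and Tnfrsf9 sits near Tnfrsf4 in Foxo1TKO at 658 TPM but at 56.7 TPM in Foxo1Ctrl.

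Of 5 death domain receptors, Fas alone was called. That is 20% higher and 0% lower, against 11.1% and 11.8% of all genes tested. Fas (ENSMUSG00000024778, chr19:34290666-34327772), which can kill activated T cells on contact with Fas ligand, was at 4295, 6358 and 6705 normalized counts in Foxo1TKO and 2567, 3260.0 and 2831 in Foxo1Ctrl. Every Foxo1TKO library was above every Foxo1Ctrl library, with replicate 1 the lowest of the Foxo1TKO libraries, and the level was 338 against 162 TPM (log2 1.00 ± 0.20, adjusted p = 0.00991). The Fas call was lost without Foxo1TKO replicate 2 (adjusted p = 0.0515) or Foxo1Ctrl replicate 1 (adjusted p = 0.0514). Tnfrsf1a (TNF receptor 1) was at 199, 169 and 137 in Foxo1TKO and 168, 98.7 and 125 in Foxo1Ctrl, with overlap (log2 0.37 ± 0.27, adjusted p = 0.379). Tnfrsf10b, the mouse receptor of TRAIL, was sparse in both genotypes (means of 28.2 and 29 counts). Tnfrsf21 (death receptor 6) was at most 19.3 counts in a library.

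The largest fall among the called members was that of Tnfrsf26, a mouse receptor without a death domain of the decoy receptor cluster on chromosome 7. Tnfrsf26 (ENSMUSG00000045362, chr7:143607659-143628722) was at 720.0, 912 and 1158 normalized counts in Foxo1TKO and 6789, 6599 and 5327 in Foxo1Ctrl. The groups were far apart, a 6.71-fold lower level in Foxo1TKO (log2 -2.75 ± 0.21, adjusted p = 0.000184). In TPM it was 21 ± 3.24 in Foxo1TKO and 137 ± 18.9 in Foxo1Ctrl. Its neighbours, the decoy receptors of TRAIL Tnfrsf22 and Tnfrsf23, were sparse and not called. Tnfrsf22 lay below in every Foxo1TKO library. Tnfrsf22, 6.08 kb from Tnfrsf26, had means of 54.6 and 99.8 counts (log2 -0.86 ± 0.28, adjusted p = 0.0615). Tnfrsf23 had means of 2.25 and 16.4 (log2 -2.36 ± 0.78, adjusted p = 0.0623). It entered the test only through Foxo1Ctrl, with 10.36 to 21.65 raw counts there and 0 to 6.57 in Foxo1TKO. Its direction was therefore largely set by the filter on counts. Tnfrsf23 was called lower without Foxo1TKO replicate 1 (log2 -3.53, adjusted p = 0.0187) and with limma-voom (-3.23, 0.0316), DESeq2 (-2.81, 0.0366) or a replicate block (-2.57, 0.0344), and was at -1.76 with effective lengths as offsets. Tnfrsf22 was called lower without Foxo1Ctrl replicate 2 (log2 -1.02, adjusted p = 0.0348) and with DESeq2 (-0.86, 0.0284). With effective lengths as offsets it was at -0.61 and not called (edgeR adjusted p = 0.158). Of the 50-base stretches of the transcripts, Tnfrsf22 shares 27.4% and Tnfrsf23 18.0% with other genes, in large part with each other, so the division of reads between them is uncertain, whereas Tnfrsf26 shares none. Tnfrsf23 and Tnfrsf26 overlap exons of the antisense gene E230032D23Rik, and the strandedness of the counting is not given in the sources used here.

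Receptors known from B cells were measured as well. Tnfrsf13c (BAFF receptor; ENSMUSG00000068105, chr15:82221743-82224369) was at 162, 124 and 138 normalized counts in Foxo1TKO and 63.9, 34 and 88.4 in Foxo1Ctrl. It lay above in every Foxo1TKO library (log2 1.17 ± 0.36, adjusted p = 0.0484). That call was lost without any library but Foxo1Ctrl replicate 3 (adjusted p from 0.0625 to 0.129) and with effective lengths as offsets (adjusted p = 0.0747). Tnfrsf13b (TACI, the other BAFF receptor of these libraries) was at 85.2 ± 6.95 TPM in Foxo1TKO and 61.6 ± 10.2 TPM in Foxo1Ctrl, with overlapping counts (log2 0.40 ± 0.18, adjusted p = 0.152). The 10 B cell markers together summed to at most 11 TPM in Foxo1TKO and 33.1 TPM in Foxo1Ctrl, and 5 of the 9 tested were called lower in Foxo1TKO. The plasma cell marker sums given above were lower in Foxo1TKO than in Foxo1Ctrl. They cover 4 genes, mostly Xbp1 and Jchain, and so cannot be set against the level of Tnfrsf13b alone. Xbp1 overlapped between the genotypes, at 69.8 to 136.67 TPM in Foxo1TKO and 58.02 to 139.68 TPM in Foxo1Ctrl. The part of B cells and plasma cells in the values of these receptors was not tested. Cd40, the receptor of Cd40lg on B cells and other antigen presenting cells, was at 3.35, 9.57 and 6.39 counts in Foxo1TKO and 14.2, 14.7 and 12.5 in Foxo1Ctrl. Its values were separate but not called (log2 -0.99 ± 0.46, adjusted p = 0.159). Tnfrsf17 had at most 1 count in a library and Tnfrsf19 had 0. Tnfrsf12a, the receptor of Tnfsf12, had means of 8.93 and 21.9 counts, with overlap.

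**Figure D4:**
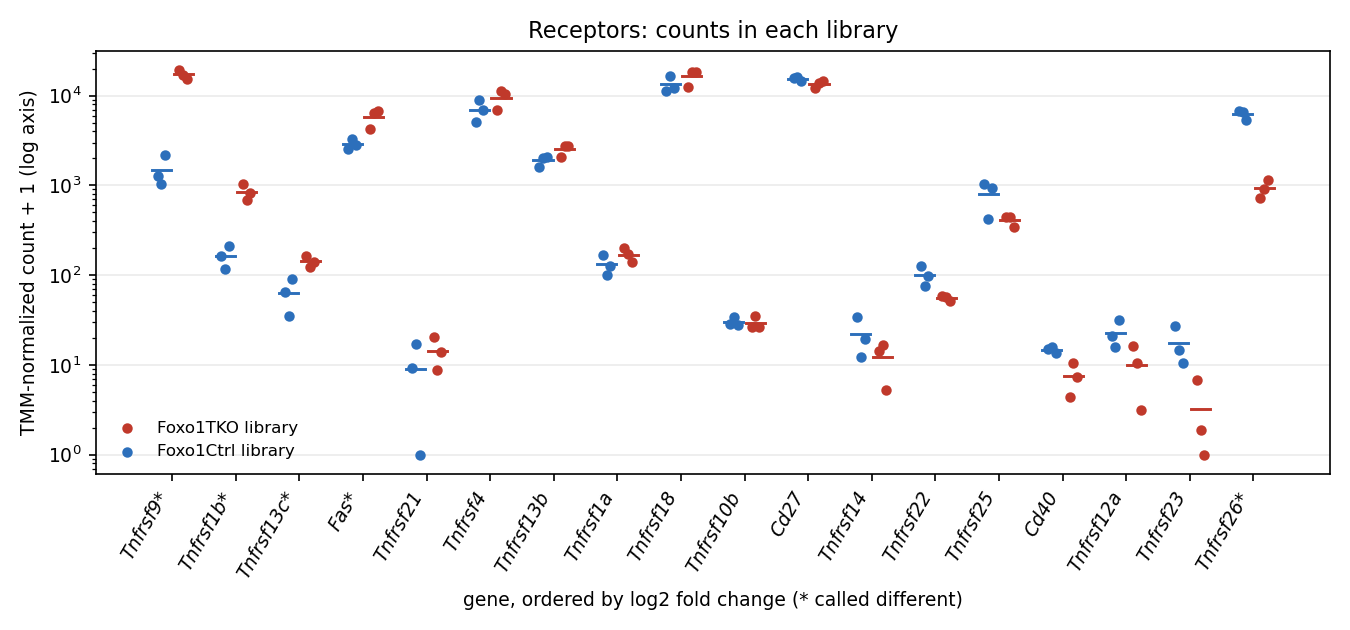
Normalized count of each receptor in each library (vertical log axis, count + 1), with Foxo1TKO libraries in red, Foxo1Ctrl libraries in blue and lines at the group means; genes are ordered by log2 fold change and an asterisk marks a called gene. Tnfrsf9 at the left and Tnfrsf26 at the right are the receptors with the widest gaps, and the abundant Tnfrsf4, Tnfrsf18 and Cd27 overlap.

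Ligands were set beside their receptors. Tnfsf9 with Tnfrsf9 and Tnf with Tnfrsf1b were higher on both sides. Tnfsf13b was lower while its receptor Tnfrsf13c was higher. Tnfsf4, Tnfsf14, Tnfsf10 and Tnf rose with no call for Tnfrsf4, Tnfrsf14, Tnfrsf10b and Tnfrsf1a. Fas rose with no call for Fasl, and Cd40lg fell with no call for Cd40. For Ltb and Tnfsf11 the signalling receptors, Ltbr and Tnfrsf11a, were at most at 4 counts.

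The signal transducers had log2 fold changes from -0.69 to 1.03, against -1.58 to 3.73 for the ligands and -2.75 to 3.53 for the receptors. Traf2, the adaptor of TNF receptor 2 and 4-1BB, was at 2664, 2038 and 1658 normalized counts in Foxo1TKO and 1325, 508 and 1284 in Foxo1Ctrl. The groups were separate but widely spread, with Foxo1Ctrl replicate 2 the lowest (log2 1.03 ± 0.36, adjusted p = 0.0747). Traf1, an NF-κB target that pairs with Traf2, was at 3241, 2524 and 2097 in Foxo1TKO and 5302, 2932 and 4415 in Foxo1Ctrl (log2 -0.69 ± 0.25, adjusted p = 0.0873). Foxo1Ctrl replicate 2 lay within the Foxo1TKO range, and without it Traf1 was called lower (log2 -0.88, adjusted p = 0.023). Traf3, which restrains the non-canonical NF-κB pathway, was at 228, 202 and 255 in Foxo1TKO and 136, 129 and 179.7 in Foxo1Ctrl (log2 0.62 ± 0.23, adjusted p = 0.0846). With effective lengths as offsets, which account for a change in the isoforms counted, Traf3 was called higher (log2 0.99, adjusted p = 0.0313).

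Traf5 was at 654, 653 and 668 normalized counts in Foxo1TKO and 808, 736 and 776 in Foxo1Ctrl, which were tight and separate but differed by little (log2 -0.23 ± 0.14, adjusted p = 0.289). Traf6, which also serves Toll-like receptors, was at 722, 562 and 456 in Foxo1TKO and 951, 492 and 801 in Foxo1Ctrl (log2 -0.37 ± 0.28). Tradd, the death domain adaptor of Tnfrsf1a, was at 1274, 1015 and 929 in Foxo1TKO and 1301, 701 and 1280.0 in Foxo1Ctrl. Both overlapped between the genotypes, and the sign of the Tradd difference depended on the library left out. Tnfaip3 (A20), the ubiquitin-editing inhibitor of NF-κB, was at 1421, 1209 and 1074 in Foxo1TKO and 1169, 882 and 1327 in Foxo1Ctrl, also with overlap. Traf4 and Traf7 had log2 fold changes of 0.28 ± 0.43 and 0.10 ± 0.32. Exons of Traf5 overlap the antisense gene Gm26879 and those of Traf7 overlap Caskin1, with the same limit as for Tnfsf9.

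Of 26 other genes of the pathway, 1 was called higher (3.85%) and 3 lower (11.5%), against 11.1% and 11.8% of all genes tested. Calls were thus no more frequent in this list than over all genes. The median log2 fold change of the list was -0.22. Ripk3, the kinase that starts necroptosis, was higher (log2 0.83 ± 0.20, adjusted p = 0.0204). Cflar (c-FLIP), the inhibitor of caspase-8 activation at death receptors, fell from 2316 ± 325 to 1118 ± 60.3 normalized counts (log2 -1.05 ± 0.16, adjusted p = 0.0028). Map3k5 (ASK1), a stress kinase downstream of Traf2, fell from 629 ± 52.3 to 140.1 ± 31.3 (log2 -2.16 ± 0.22, adjusted p = 0.000558). Tax1bp1, a partner of A20, fell from 14540 ± 992 to 8578 ± 736 (log2 -0.76 ± 0.14, adjusted p = 0.00725). Birc3, Cyld and Casp8 had adjusted p-values of 0.0365, 0.0334 and 0.0324 with log2 fold changes of -0.55, -0.50 and -0.55, under the limit on the fold change. The other 19, among them Ripk1, Fadd, Mlkl, Chuk, Ikbkb and Ikbkg, did not pass the test.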

How the data were processed

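RNA of 6 cultures was sequenced (3 libraries per genotype). The authors aligned reads with STAR 2.7.6a to GRCm38 and counted them with RSEM 1.3.1, per the labels. They deposited expected counts, which are not normalized and were rounded here, and TPM and effective lengths per gene. The authors also deposited a matrix of normalized signal for 13564 genes, which was rebuilt to within 0.1% for 100% of its values as counts over DESeq2 size factors corrected for effective length. Total counts per library limit the precision, and limits set from counts of 0 cover counting error only.

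The genotypes were compared with edgeR 4.0.16 (R 4.3.3) by glmQLFit and glmQLFTest after TMM scaling, with a prior count of 1 and no covariate. A gene entered with 10 or more counts in 3 or more libraries (13691 genes), p-values were adjusted over all of these by Benjamini-Hochberg, and a call needed both an adjusted p below 0.05 and a change above 1.5-fold. DESeq2 1.42.0, limma-voom (limma 3.58.1), other scalings and filters, effective length offsets, the matrix on the log2(value + 1) scale, a replicate block and each library left out were alternatives. The edgeR, limma-voom and DESeq2 tests were also tried on simulated counts with set changes, and the other steps were not. Positions came from GENCODE M21 (GRCm38). Promoters came from RefSeq (GRCm38.p6). Figures were drawn with matplotlib 3.10.9.

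Members, lists and tests were chosen with earlier results of these data known. Values in every library are given for called members whose mean reached 50 normalized counts and for a list of well-studied members, called or not, and the others are summarised.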

Additional observations from a re-analysis of the deposited data

How the results depend on the processing

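Of the 15 called members, 10 kept their call in each of the 6 fits without a library and in each of the 9 other fits. Called higher were 11 members, 7 to 10 with a library left out and 14 with DESeq2. Called lower were 4, 3 to 7 with a library left out and 7 with DESeq2. All genes called numbered 3144, 1590 to 3165 with a library left out and 3694 with DESeq2. The lowest count of higher members, 7, came without Foxo1TKO replicate 2 or Foxo1Ctrl replicate 1 (1590 and 1848 genes called in all), and the 7 lower members came without Foxo1Ctrl replicate 2. With 1 library less, fewer samples enter each fit. The median log2 fold change of the members was 0.21. Over the members tested in each fit with a library left out, it ranged from -0.036 (without Foxo1TKO replicate 1) to 0.25. It was 0.03 without Foxo1Ctrl replicate 2. Of 590 values of single members, 14 changed sign, all in members near 0: Tradd (0.014 with limma-voom, 0.05 on the deposited matrix, 0.012 with the replicate block, -0.257 to 0.092 with a library left out), and, with a library left out, Tnfaip3 (-0.008 to 0.26), Tnfrsf10b (-0.175 to 0.064), Traf4 (-0.093 to 0.613) and Traf7 (-0.17 to 0.28). Apart from the reasons given, the cause was not tested.

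Libraries with the same number correlated at 0.43, 0.20 and -0.11 in their deviations from the genotype mean. Such deviations depend on each other within a genotype, so these values cannot decide whether the numbers mark pairs. The paper compared surface proteins and cell divisions of such cultures with a paired t test. In the main fit the numbers were not taken as pairs, and in the replicate block they were. With the replicate block, 12 members were called higher, 6 lower and 3318 genes in all, the median was 0.22, and not every library correlated best with its own number. Uncalled members that an alternative called were Cd70, Fasl, Tnfrsf22, Tnfrsf23, Tnfrsf25, Traf1, Traf2 and Traf3. Depth limits statements on members with few counts, such as Cd70, Cd40, Tnfrsf14 and Tnfrsf23.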

Other observations

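The transducers shared an order of the libraries. In 7 of the 9, Foxo1TKO replicate 1 was the highest library of its genotype and Foxo1Ctrl replicate 2 the lowest of its own. Both orders held together for 27.9% of all genes tested, for 4 of 13 ligands and for 7 of 18 receptors. Foxo1Ctrl replicate 2 alone was the lowest of its genotype for all 9 transducers. That held for 5920 of the 13691 genes tested, for 5 of 13 ligands and for 8 of 18 receptors. These are the libraries that stood apart within their genotypes. This order was noticed after the values were seen.

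The RSEM effective length, an average over the isoforms counted, differed between genotypes for some members. The ratio of Foxo1TKO to Foxo1Ctrl was 1.43 for Tnfrsf14, 0.695 for Tnfrsf23, 0.788 for Traf3, 0.864 for Tnfrsf22 and 0.881 for Tnfrsf12a. It was 1.13 for Tnfsf10 and 1.09 for Tnfrsf1b, which were both called higher. With effective lengths as offsets the log2 fold change of Tnfsf10 was 1.86 in place of 2.07, and it kept its call (adjusted p = 0.00143).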
